A study of Homo sapiens with 4 samples.

Results

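EGR1, the AP-1 genes FOS, FOSB, FOSL1, FOSL2, JUN, JUNB and JUND, and the response genes IER2 and IER3 were followed by gene symbol in a table of 11972 protein-coding genes. Of these 10 genes, 9 had a row, and FOSB is not analysed here. RNA was sequenced from 143B cells, a human osteosarcoma line, kept under puromycin. The 2 shFTO libraries came from cells with a short hairpin RNA plasmid against FTO, which encodes a demethylase of N6-methyladenosine in RNA. The 2 shCtrl libraries came from cells of the same line transfected with a control plasmid. The labels describe stable cells and name no separate cultures, and p-values here therefore reflect spread between libraries that may be purely technical.

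Immediate early genes are transcribed within minutes of a growth factor, serum or stress signal, without new protein synthesis, and most of their mRNAs are short-lived. ERK signalling reaches the EGR1 and FOS promoters through the serum response factor SRF, which binds CArG boxes, and its ELK partners. AP-1 is a dimer of bZIP proteins, usually a FOS family member with a JUN family member, and it binds sites with the letters TGANTCA. In osteosarcoma AP-1 has long been studied because FOS drives bone tumours in mice and in its viral form was found in a mouse osteosarcoma virus.

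Values are fragments per kilobase of transcript, scaled to mapped fragments (FPKM). They summed to between 200555 and 212531 per library, and read depth is unknown. The targeted gene had 0.268 and 0.242 FPKM of FTO in shFTO, against 1.14 and 0.665 FPKM in shCtrl, so FTO lay lower in both knockdown libraries at a low level throughout. Of 12 mesenchymal and osteosarcoma markers 9 had a row. Vimentin (VIM) had 329 and 253 FPKM in shFTO, against 253 and 271 FPKM in shCtrl. SPARC had 67.4 and 61.3 FPKM in shFTO, against 82.1 and 85.3 FPKM in shCtrl. CD44 had 32.7 and 29.6 FPKM in shFTO, against 27.9 and 26.2 FPKM in shCtrl. COL1A1 reached at most 2.07 FPKM and RUNX2 at most 0.577 FPKM, and COL1A2, BGLAP and SP7 had no row. Of the 7 mesenchymal and osteosarcoma markers tested, 4 lay above shCtrl and 3 below, and 0 passed in limma. None of 4 endothelial markers and 1 of 5 immune markers, CD68, had a row. Among 5 epithelial markers, CDH1 and KRT19 had no row. The other epithelial markers, KRT8, KRT18 and EPCAM, summed to 124 to 150 FPKM in shFTO, against 175 to 192 FPKM in shCtrl. Most of this sum was KRT18, with 128 and 110 FPKM in shFTO, against 149 and 163 FPKM in shCtrl. KRT8 did not overlap either, whereas EPCAM did, with 4.36 and 2.43 FPKM in shFTO, against 4.46 and 4.02 FPKM in shCtrl. The part of these markers in the results below was not tested.

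EGR1 (chromosome 5, 137801179 to 137805004, plus strand, hg19) encodes a zinc finger transcription factor induced by ERK signalling. It had 10.5 and 11.2 FPKM in shFTO, against 3.85 and 4.15 FPKM in shCtrl. Both knockdown libraries lay above both controls, and the lowest shFTO value was 2.54 times the highest shCtrl value. Its shFTO mean was 10.8 ± 0.451 FPKM, against 4.0 ± 0.212 FPKM in shCtrl (SD, n = 2 for each mean), a ratio of 2.71. On the log2(FPKM + 1) scale, which understates the change of low genes, the difference was 1.24 (SE 0.15, 95% confidence interval 0.87 to 1.62). EGR1 ranked 21 by unadjusted p among 10873 tested genes and did not pass the threshold of 0.05 (limma adjusted p = 0.104). The spread behind this was small, since its within-group SD on the log2 scale was at or above that of 9% of the 500 genes nearest to it in level. In bulk RNA a higher level in every cell and a larger share of cells that express a gene cannot be told apart.

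The EGR1 call moved with the library left out, although its size moved little. Without shFTO replicate 1 the log2 difference was 1.28, and without shFTO replicate 2 it was 1.21. Without shCtrl replicate 1 it was 1.20, and without shCtrl replicate 2 it was 1.29. EGR1 passed the threshold in both fits with 1 shFTO library left out and in neither with 1 shCtrl library left out. Over all tested genes too, more genes passed with 1 shFTO library left out and fewer with 1 shCtrl library left out. In each of these fits the lone library is assumed to vary like the pair of the other group. The authors' deposited table gave EGR1 p = 0.00218 and q = 0.503.

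The promoters of EGR1, FOS, JUN and FOSL2 are shown because these 4 genes had the smallest unadjusted p among the 9, a choice made after their values were seen. EGR1, FOS and JUN lay higher in both knockdown libraries, and FOSL2 lay lower. Each sequence runs 5′ to 3′ from 250 bases before to 50 bases after the RefSeq start site (GRCh38.p14), and 8 of the 10 genes matched this table, without FOSL1 and IER3. Capitals mark CArG boxes, TGACGT, the core of the cyclic AMP response element, TGANTCA, and TGACATCA, on either strand. TGACATCA, an AP-1-like site described in the JUN promoter, was added after the sequences had been read. Other AP-1-like sites in these windows were not marked.
EGR1 promoter, chr5:138465229-138465528, plus strand: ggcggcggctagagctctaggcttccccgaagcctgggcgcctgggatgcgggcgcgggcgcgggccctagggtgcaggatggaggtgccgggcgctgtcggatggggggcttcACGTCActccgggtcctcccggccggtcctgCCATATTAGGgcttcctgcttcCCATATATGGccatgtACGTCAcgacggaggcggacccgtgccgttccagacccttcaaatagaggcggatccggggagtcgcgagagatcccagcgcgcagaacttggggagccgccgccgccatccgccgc
FOS promoter, chr14:75278578-75278877, plus strand: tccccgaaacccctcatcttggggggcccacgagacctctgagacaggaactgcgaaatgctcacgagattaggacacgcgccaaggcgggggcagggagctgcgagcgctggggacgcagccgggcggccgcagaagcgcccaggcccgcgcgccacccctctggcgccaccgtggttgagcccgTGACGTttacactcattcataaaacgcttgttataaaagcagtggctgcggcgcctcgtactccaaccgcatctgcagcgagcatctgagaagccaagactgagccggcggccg
JUN promoter, chr1:58783998-58784297, minus strand: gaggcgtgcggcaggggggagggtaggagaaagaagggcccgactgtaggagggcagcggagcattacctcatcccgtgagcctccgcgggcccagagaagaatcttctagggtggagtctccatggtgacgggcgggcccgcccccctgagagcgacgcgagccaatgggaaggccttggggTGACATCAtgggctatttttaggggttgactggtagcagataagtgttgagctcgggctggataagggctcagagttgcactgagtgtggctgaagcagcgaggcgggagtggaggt
FOSL2 promoter, chr2:28392608-28392907, plus strand: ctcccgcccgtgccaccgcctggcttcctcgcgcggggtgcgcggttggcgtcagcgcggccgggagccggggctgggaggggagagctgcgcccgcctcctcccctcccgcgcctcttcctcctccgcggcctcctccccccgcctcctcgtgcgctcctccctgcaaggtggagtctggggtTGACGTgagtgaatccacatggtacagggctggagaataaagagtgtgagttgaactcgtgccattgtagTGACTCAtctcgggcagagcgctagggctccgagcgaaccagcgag

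The EGR1 window held 2 CArG boxes, beginning 105 and 83 bases before the start site, and 2 matches to TGACGT on the minus strand, beginning 136 and 67 bases before it. A CArG box was found in 1.29% of 35116 RefSeq promoters of this length, and TGACGT in 7.98%. None of the other 7 matched members held a CArG box in this window. Sequence more than 250 bases before the start site was not searched, so a CArG box further upstream, in FOS or another member, would be missed. FOS, FOSL2 and FOSB each held TGACGT once, 64, 66 and 60 bases before the start site, and JUND held it 3 times, of which 2 overlap in a single TGACGTCA. JUN held TGACATCA, 67 bases before its start site, a motif found in 2.61% of promoters. FOSL2 was the one matched member with TGANTCA, just after its start site, against 7.71% of promoters. A match is a description of the letters and not of binding.

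**Figure D1:**
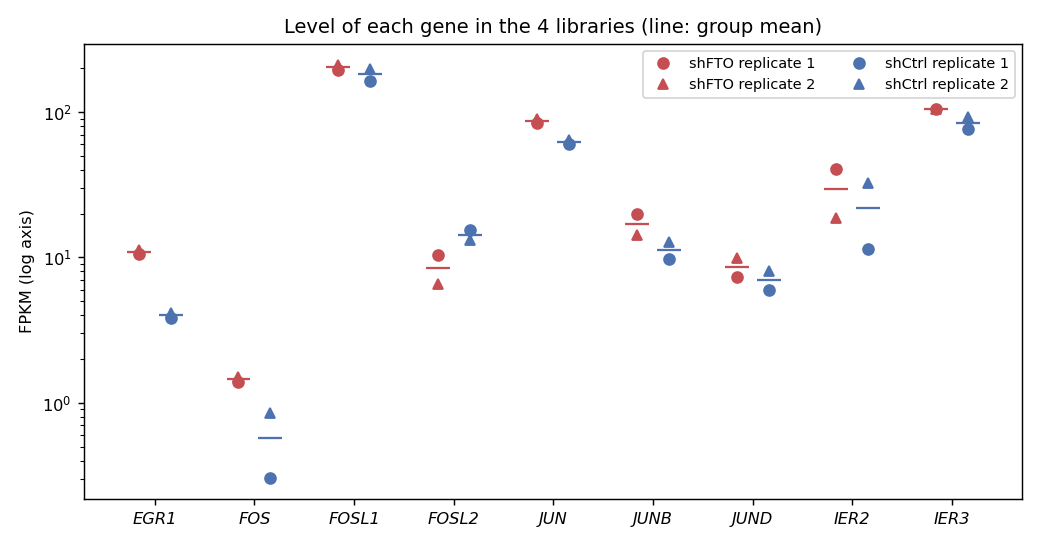
FPKM of each gene (log axis) in the 2 shFTO libraries (red) and the 2 shCtrl libraries (blue), with a line at each group mean. EGR1 had 10.5 and 11.2 FPKM in shFTO, above 3.85 and 4.15 FPKM in shCtrl, whereas the IER2 values of the groups overlap.

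Among the FOS family, FOS (chromosome 14, 75745477 to 75748933, plus strand, hg19), the founding member and a strong activator, was low in all libraries. It had 1.40 and 1.51 FPKM in shFTO, against 0.303 and 0.847 FPKM in shCtrl. The groups did not overlap, but the shCtrl values lay 2.80-fold apart. The log2 difference was 0.66 (SE 0.20, limma adjusted p = 0.346), and with a pseudocount of 0.1 it was 1.33 (limma adjusted p = 0.404). Without shCtrl replicate 1 it was 0.41, and without shCtrl replicate 2 it was 0.91. FOS met the filter of at least 1 FPKM in at least 2 libraries through the shFTO libraries alone, so its place among the tested genes is not independent of the direction.

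FOSL1, which encodes FRA1, a FOS family member without the C-terminal activation domain of FOS, was the most abundant of the 9 genes. Its levels were 195 and 212 FPKM in shFTO, against 164 and 199 FPKM in shCtrl, and the groups overlapped. The log2 difference was 0.17 (95% confidence interval -0.21 to 0.54, limma adjusted p = 0.726). It was 0.03 without shCtrl replicate 1, 0.11 without shFTO replicate 2 and 0.31 without shCtrl replicate 2. FOSL1 lay at the 99.1 percentile of mean level among tested genes.

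FOSL2 (chromosome 2, 28615315 to 28640179, plus strand, hg19), which encodes FRA2, lay in the opposite direction to the other 8 genes. It had 10.5 and 6.55 FPKM in shFTO, against 15.5 and 13.2 FPKM in shCtrl. Both knockdown libraries lay below both controls, with an shFTO mean of 8.51 ± 2.77 FPKM, against 14.4 ± 1.67 FPKM in shCtrl (SD, n = 2 for each mean). The log2 difference was -0.72 (SE 0.24, 95% confidence interval -1.30 to -0.14, limma adjusted p = 0.387) and did not pass. Without shFTO replicate 1 it was -1.02, and without shFTO replicate 2 it was -0.42. The difference passed only in the first of these fits, where more genes passed over all tested genes too. That fit assumes that the lone shFTO library varies like the shCtrl pair. An antisense gene and a sense intronic gene overlap FOSL2 in GENCODE release 29, and the sources used here do not give the use of strand in counting.

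JUN (chromosome 1, 59246460 to 59249999, minus strand, hg19) encodes the main partner of FOS proteins and a target of JNK. It had 84.5 and 89.6 FPKM in shFTO, against 60.3 and 64.0 FPKM in shCtrl. The groups did not overlap, and the libraries within each group lay 1.06-fold apart. Its shFTO mean was 87.0 ± 3.60 FPKM, against 62.2 ± 2.66 FPKM in shCtrl (SD, n = 2 for each mean), a ratio of 1.40. The log2 difference was 0.48 (SE 0.13, 95% confidence interval 0.16 to 0.80, limma adjusted p = 0.305) and did not pass. The authors' deposited table gave JUN p = 0.0153 and q = 0.503.

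JUNB, which is often a weaker activator than JUN and can oppose it, had 20.0 and 14.2 FPKM in shFTO, against 9.68 and 12.7 FPKM in shCtrl. The groups did not overlap, yet the lowest shFTO value was only 1.12 times the highest shCtrl value. The log2 difference was 0.56 (SE 0.22, limma adjusted p = 0.457), and leaving out shFTO replicate 1 gave 0.33 and shFTO replicate 2 gave 0.80. JUNB overlaps HOOK2, a gene on the opposite strand that had 1.29 and 1.45 FPKM in shFTO, against 0.822 and 0.681 FPKM in shCtrl, so reads of the pair could not be told apart if strand was not used.

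JUND, the JUN family member that is expressed most constantly in resting cells, had 7.37 and 9.84 FPKM in shFTO, against 5.94 and 8.06 FPKM in shCtrl. The groups overlapped, and in each group replicate 2 was the higher library. The log2 difference was 0.27 (95% confidence interval -0.27 to 0.80, limma adjusted p = 0.695). It was 0.08 without shFTO replicate 2 and 0.07 without shCtrl replicate 1, against 0.45 without shFTO replicate 1 and 0.46 without shCtrl replicate 2.

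IER3, a response gene that affects survival and ERK signalling, had 106 and 105 FPKM in shFTO, against 76.8 and 92.1 FPKM in shCtrl. The groups did not overlap, with a log2 difference of 0.32 (95% confidence interval -0.04 to 0.68, limma adjusted p = 0.495), which was 0.19 without shCtrl replicate 1. IER2, a nuclear protein gene induced by serum, had 40.6 and 18.6 FPKM in shFTO, against 11.5 and 32.3 FPKM in shCtrl. Its libraries lay 2.18-fold apart within shFTO and 2.81-fold apart within shCtrl, so the groups overlapped. The log2 difference of 0.48 (SE 0.54, limma adjusted p = 0.780) turned to -0.06 without shFTO replicate 1 and -0.22 without shCtrl replicate 1. IER2 had a larger within-group SD, 0.892 on the log2 scale, than nearly all genes of its level, at the 99.2 percentile of the 500 nearest. In GENCODE release 29 antisense genes overlap both IER2 and IER3.

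**Figure D2:**
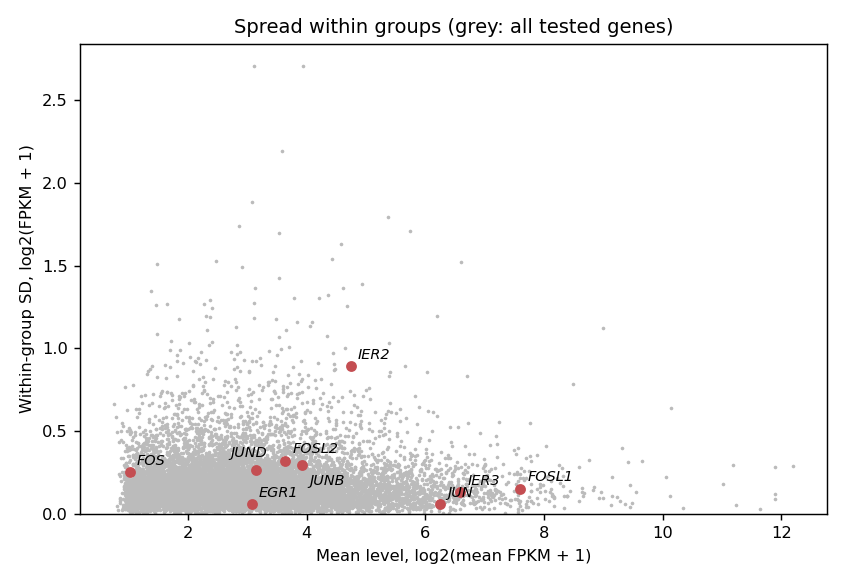
Within-group SD on the log2(FPKM + 1) scale against the mean level for all 10873 tested genes (grey) and the 9 genes (red). EGR1 and JUN lie near the lower edge at 0.058 and 0.060, and IER2 lies at 0.892.

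Of the 9 genes, 0 passed the adjusted threshold in limma, beside 0.0276% of all tested genes (3 of 10873). At an unadjusted limma p under 0.05, EGR1, JUN, FOS and JUNB were higher, where 7.11% of tested genes were, and FOSL2 was lower, where 3.74% were. Without FOS, which met the filter through shFTO alone, 3 were higher. The higher count was 1, EGR1, without shCtrl replicate 1, and FOSL2 missed this limit there and without shFTO replicate 2. JUNB missed it with quantile normalization, with median-ratio scaling and with the replicate number as a block, and IER3 met it with quantile normalization. Without shFTO replicate 1 the JUNB log2 difference was 0.33, and without shCtrl replicate 2 that of IER2 was 1.19. The split over all tested genes of 773 higher and 407 lower was 599 and 497 with quantile normalization and, after median-ratio scaling, 652 and 508. The groups did not overlap for 5 genes in the higher direction (24.6% of tested genes) and for 1 in the lower direction (18.1%). Without FOS the non-overlapping genes numbered 4 higher and 1 lower. The median log2 difference was 0.48 over the 9 genes and 0.40 without FOS, beside 0.02 over all tested genes. For 1 gene, exact permutation of 2 against 2 libraries gives a two-sided p of at least 0.333.

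**Figure D3:**
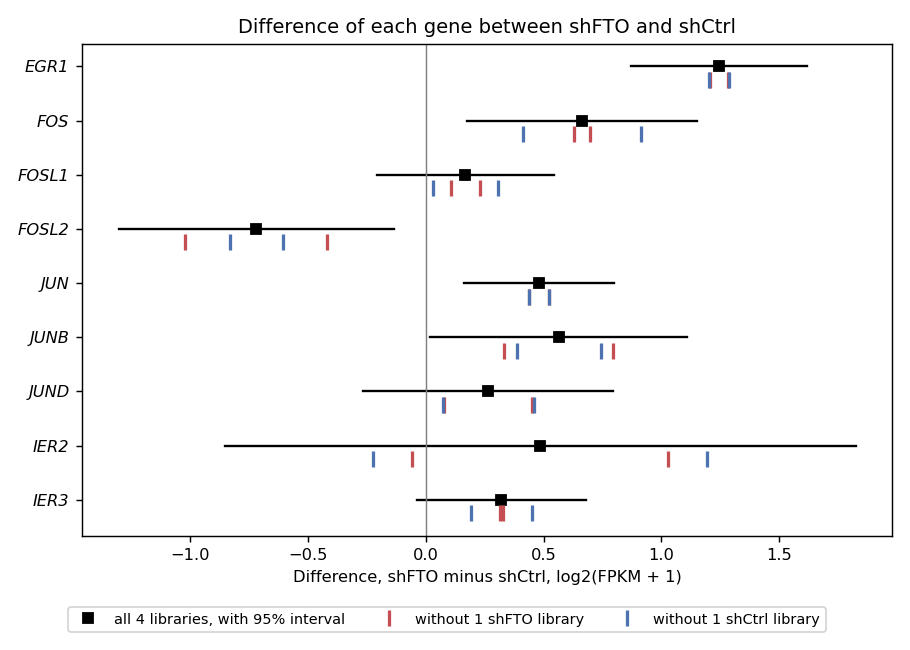
Difference on the log2(FPKM + 1) scale (shFTO minus shCtrl) with the 95% confidence interval of the limma fit (black), and the differences after leaving out 1 shFTO library (red ticks) or 1 shCtrl library (blue ticks). The EGR1 differences stay between 1.20 and 1.29, and those of IER2 run from -0.22 to 1.19.

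The order of the levels, which FPKM allow because they are per length, differed between the groups in its middle. In shFTO the means ran from FOSL1 (203 FPKM) through IER3 (105 FPKM), JUN (87.0 FPKM), IER2 (29.6 FPKM), JUNB (17.1 FPKM), EGR1 (10.8 FPKM), JUND (8.61 FPKM) and FOSL2 (8.51 FPKM) to FOS (1.46 FPKM). In shCtrl they ran from FOSL1 (182 FPKM) through IER3 (84.4 FPKM), JUN (62.2 FPKM), IER2 (21.9 FPKM), FOSL2 (14.4 FPKM), JUNB (11.2 FPKM), JUND (7.0 FPKM) and EGR1 (4.0 FPKM) to FOS (0.575 FPKM). FOSL2 stood above EGR1 in both shCtrl libraries. In shFTO its mean stood below that of EGR1 through replicate 2, since in replicate 1 the ratio of EGR1 to FOSL2 was 1.01. Neighbours whose libraries overlapped were IER2 with JUNB and JUND with FOSL2 in shFTO, and IER2 with FOSL2 in shCtrl.

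The FOS and JUN genes divided their summed level in a similar way in all libraries, with FOSL1 first and JUN second. Together these 6 genes had 319 and 334 FPKM in shFTO, against 256 and 298 FPKM in shCtrl. FOSL1 took 61.2% and 63.5% of the sum in shFTO and 64.1% and 66.8% in shCtrl. JUN, JUNB and JUND together took 35.1% and 34.1% in shFTO, against 29.7% and 28.4% in shCtrl, without overlap (exact two-sided permutation p = 0.333, the smallest that 2 against 2 can give). FOSL2 took 3.29% and 1.96% in shFTO, against 6.08% and 4.42% in shCtrl, and FOS at most 0.454% in any library. The ratio of FOSL1 to FOSL2 was 18.6 and 32.4 in shFTO, against 10.6 and 15.1 in shCtrl. FOSL1 itself overlapped between the groups, so the separation of this ratio draws on the FOSL2 values already given. Likewise, the share of the JUN genes is mostly JUN, so neither is a separate result.

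**Figure D4:**
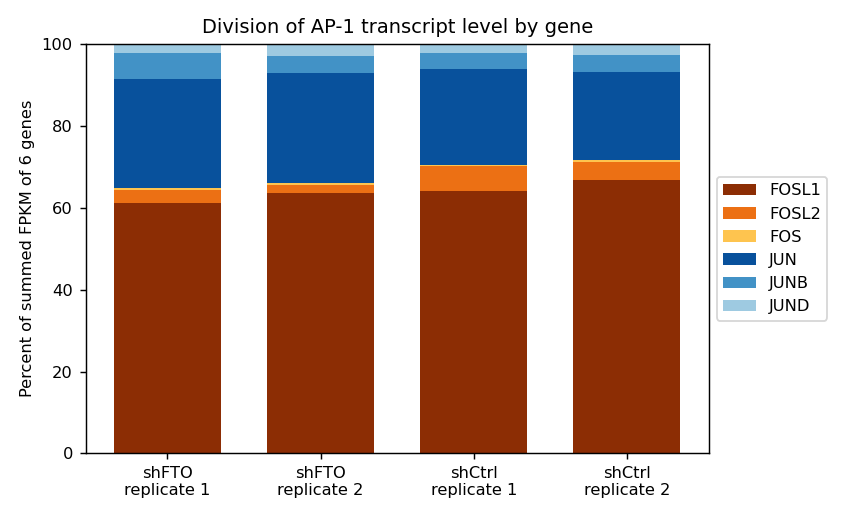
Percent of the summed FPKM of 6 FOS and JUN genes taken by each gene in each library, shFTO left and shCtrl right. The JUN genes (blue) take 35.1% and 34.1% in shFTO, against 29.7% and 28.4% in shCtrl.

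Features of the transcripts varied among the 9 genes. In GENCODE release 29, JUN, JUNB, JUND and IER2 have a single exon in their longest principal transcript, as do 2.15% of 10674 tested genes with a 3′ UTR. AU-rich elements, which mark mRNAs for rapid decay, were searched for on the sense strand in the 3′ UTR. The nonamer TTATTTATT was present in FOS and in FOSL2, against 8.77% of those genes, and both sites are shown because these genes lay in opposite directions, with the nonamer in capitals.
FOS site, chromosome 14: tgtttttaatTTATTTATTaagatggatt
FOSL2 site, chromosome 2: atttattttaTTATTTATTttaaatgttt

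The pentamer ATTTA occurred 9 times in the 3′ UTR of FOSL2, 6 times in that of IER3 and 5 times in that of FOS, 3 times in that of JUN and 2 times in that of JUNB. It occurred once in those of EGR1, FOSL1 and JUND and 0 times in that of IER2, beside a median of 2. These counts depend on length, and the FOSL2 3′ UTR has 4864 bases, against 1234 bases for EGR1 and a median of 1134.5 bases. GGACT, a common core of N6-methyladenosine sites, occurred 7 times in the 3′ UTR of FOSL2, 5 times in that of IER2 and 3 times in each of those of JUN and IER3. It occurred 2 times in each of those of FOS and JUND, once in that of JUNB and 0 times in those of EGR1 and FOSL1. It was present in 59.4% of those genes, and no methylation was measured here.

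The genes whose pattern over the 4 libraries lay nearest to that of EGR1 were UBALD1, PLEKHN1 and the mitochondrial peroxidase gene PRDX3. Their centred log2 values differed from those of EGR1 by a root mean square of 0.0389, 0.0441 and 0.0478. UBALD1 had 5.80 and 5.91 FPKM in shFTO, against 1.83 and 1.83 FPKM in shCtrl. PLEKHN1 had 3.17 and 3.62 FPKM in shFTO, against 0.864 and 1.03 FPKM in shCtrl, and PRDX3 had 90.6 and 87.2 FPKM, against 35.6 and 37.4 FPKM in shCtrl. Within a distance of 0.1 lay 8 of the 10872 other tested genes, none of which is a gene of this group.

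The counts of the following lists stand beside those over all tested genes, of which 53.8% lay above shCtrl, 7.11% were higher and 3.74% lower at an unadjusted p under 0.05, and 24.6% and 18.1% did not overlap in these directions. Of 31 other immediate early genes, 25 were tested, and 13 lay above shCtrl and 12 below, with a median log2 difference of 0.20. None passed the limma threshold, at an unadjusted p under 0.05 there were 5 higher and 1 lower, and the groups did not overlap for 11 higher and 6 lower. TRIB1, which encodes a pseudokinase, had 12.6 and 12.3 FPKM in shFTO, against 6.33 and 5.86 FPKM in shCtrl (limma adjusted p = 0.154). KLF10 had 17.9 and 18.0 FPKM in shFTO, against 12.7 and 11.4 FPKM in shCtrl, and MYC had 3.85 and 4.51 FPKM in shFTO, against 2.84 and 0.612 FPKM in shCtrl. CTGF, a matrix-associated factor gene also induced by serum, lay the other way, with 146 and 149 FPKM in shFTO, against 250 and 246 FPKM in shCtrl (limma adjusted p = 0.159). EGR2, EGR3, EGR4, NR4A2 and NR4A3 had no row, and ATF3 was below the filter.

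Genes that carry the signal to EGR1 and FOS, from receptors through ERK to SRF and ELK factors, had 21 of 26 tested members above shCtrl, with a median log2 difference of 0.20. None passed in limma, and 3 were higher and 1 lower at an unadjusted p under 0.05. RPS6KA2, a kinase gene downstream of ERK, had 2.81 and 3.70 FPKM in shFTO, against 1.48 and 1.23 FPKM in shCtrl (limma adjusted p = 0.225). MKNK2, a kinase gene that ERK and p38 activate, had 6.71 and 5.58 FPKM in shFTO, against 3.70 and 3.67 FPKM in shCtrl. ELK3, a partner of SRF that can repress, had 12.8 and 17.3 FPKM in shFTO, against 25.1 and 23.5 FPKM in shCtrl (limma adjusted p = 0.305). SRF itself had 16.6 and 19.6 FPKM in shFTO, against 14.7 and 16.6 FPKM in shCtrl.

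In the JNK and p38 cascade, 11 of 17 tested genes lay above shCtrl with a median of 0.01, and 0 passed in limma (1 higher and 1 lower at an unadjusted p under 0.05). MAPK14, which encodes p38 alpha, had 8.45 and 6.38 FPKM in shFTO, against 2.95 and 2.73 FPKM in shCtrl (limma adjusted p = 0.159). MAP3K1, a kinase gene upstream of JNK, had 3.02 and 2.09 FPKM in shFTO, against 4.74 and 3.86 FPKM in shCtrl. Among other bZIP genes listed beside AP-1, 10 of 14 tested genes lay above shCtrl with a median of 0.17. None passed in limma (1 higher and 0 lower at an unadjusted p under 0.05). CREB1 had 5.59 and 2.60 FPKM in shFTO, against 1.61 and 1.24 FPKM in shCtrl.

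Genes known as AP-1 targets had 16 of 20 tested members above shCtrl, with a median log2 difference of 0.33. None passed in limma, and at an unadjusted p under 0.05 there were 4 higher and 1 lower, where 7.11% and 3.74% of all tested genes were. The groups did not overlap for 9 higher and 3 lower. PTGS2, the inducible prostaglandin synthase gene, had 2.04 and 3.52 FPKM in shFTO, against 1.07 and 0.938 FPKM in shCtrl (limma adjusted p = 0.287). The collagenase gene MMP1 had 297 and 1414 FPKM in shFTO, against 159 and 170 FPKM in shCtrl, so its mean rests on shFTO replicate 2. LOX, which encodes a collagen crosslinking enzyme, lay the other way, with 4.84 and 3.84 FPKM in shFTO, against 8.48 and 7.21 FPKM in shCtrl (limma adjusted p = 0.286).

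EGR1 cofactors and targets had 9 of 14 tested members above shCtrl, with a median log2 difference of 0.04, and 0 passed in limma (2 higher and 0 lower at an unadjusted p under 0.05). NAB2, a corepressor that EGR1 induces, had 8.19 and 7.13 FPKM in shFTO, against 6.03 and 4.27 FPKM in shCtrl (limma adjusted p = 0.458). Fibronectin (FN1) had 43.0 and 89.0 FPKM in shFTO, against 12.3 and 9.20 FPKM in shCtrl (limma adjusted p = 0.141). IGF2 had 13.6 and 1.75 FPKM in shFTO, against 0.489 and 1.29 FPKM in shCtrl, so its mean rests on shFTO replicate 1.

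Factors of AU-rich mRNA decay lay above shCtrl in 15 of 28 cases, at a median log2 difference of 0.02, with 0 past the limma threshold and 3 higher and 0 lower at an unadjusted p under 0.05. ZFP36L1, whose protein binds AU-rich elements and starts decay, had 51.0 and 56.2 FPKM in shFTO, against 30.9 and 27.9 FPKM in shCtrl (limma adjusted p = 0.159). Its relative ZFP36 had 2.48 and 2.41 FPKM in shFTO, against 2.34 and 2.57 FPKM in shCtrl. Heat shock genes, which respond to handling, had 7 of 12 members above shCtrl, a median of 0.03 and 0 at an unadjusted limma p under 0.05. They summed to 1764 and 1697 FPKM in shFTO, against 1804 and 1857 FPKM in shCtrl.

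**Figure D5:**
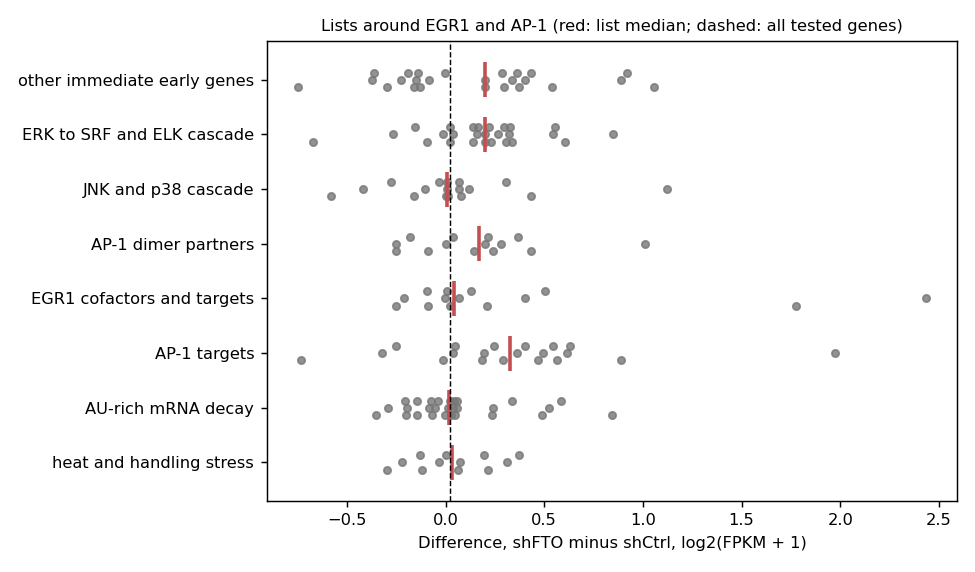
Difference on the log2(FPKM + 1) scale (shFTO minus shCtrl) of each tested gene (grey) in 8 lists, with the list median (red) and the median of all tested genes (dashed). The medians run from 0.01 for the JNK and p38 cascade to 0.33 for AP-1 targets.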

How the data were processed

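Expression was taken from 1 table of 143B libraries, with 2 libraries for shFTO and 2 for shCtrl, grouped by title. Per the file headers, the values deposited for each library are FPKM. Tools listed in the submitters' processing notes, without a role for each, are STAR 2.5.2b, StringTie, HISAT2 2.0.5 and cutadapt, and the build is hg19. The deposited group columns, headed FPKM, hold means of log2(FPKM + 1). The log2 fold change deposited by the authors is their difference, the deposited fold change is 2 to that power, and the deposited p-value and q-value are the authors' own. The table holds genes whose mean reached 0.5 FPKM in a group (lowest 0.500).

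Limma 3.58.1 in R 4.3.3 was fitted to log2(FPKM + 1), so the pseudocount was 1. The fit used the mean-variance trend, had no block, and covered the 10873 genes that reached 1 FPKM in 2 or more libraries, with Benjamini-Hochberg adjustment over all of them and a threshold of 0.05. FTO missed this filter and is given as FPKM. The procedure was tested on simulated data. Read depth is unknown, so no counting intervals were computed.

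The members and lists were chosen with earlier results of these data known. Some genes stand in more than 1 list. Up to 3 genes of each list in each direction, by the smallest unadjusted p, could be named, of which 1 is not reported here; SRF, ATF3 and ZFP36 were named for their function, and list genes without a row for their absence. Promoters came from RefSeq (GRCh38.p14), and transcripts from GENCODE release 29 by gene ID, matched for 98.2% of tested genes. Alternatives covered the pseudocount (0.1), the filter, scaling, the variance trend, a replicate block and leaving out each library.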

Additional observations from a re-analysis of the deposited data

How the results depend on the processing

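Of 107 alternative values for the 9 genes, 102 kept their direction and their side of the threshold, 3 passed the threshold and 2 changed sign. The filters, the variance trend and the blocks do not alter the log2 difference itself, so the direction could not change in those fits. None of the 9 genes passed with all libraries, so most values kept their side by still not passing. EGR1 ran from 1.20 to 1.29 on the log2 scale when 1 library was left out, and from 1.21 with quantile normalization to 1.42 with a pseudocount of 0.1 otherwise. FOSL2 ran from -1.02 to -0.42 when 1 library was left out. IER2 ran from -0.22 to 1.19, and its sign turned without either shFTO replicate 1 (-0.06) or shCtrl replicate 1. The number of genes past the threshold, 3 with all libraries, ran from 0 without either shCtrl library (509 and 584 at an unadjusted limma p under 0.05) to 429 without shFTO replicate 1. It was 0 with a pseudocount of 0.1 (limma, 1167 at an unadjusted p under 0.05), and 1 each with no filter, quantile normalization, median-ratio scaling and no variance trend. Across tested genes the log2 values correlated at 0.959 within the shFTO pair and at 0.981 within the shCtrl pair. Between libraries of opposite groups the correlation was 0.956 to 0.970, so the shFTO pair was no more alike than some pairs across groups. The cause of the moves in the number of genes past the threshold was not tested. With the replicate number as a block 15 genes passed, and none of the 9 genes changed call (EGR1 limma adjusted p = 0.0896). The labels do not say that numbers mark a shared batch, and same-numbered libraries deviated from their group means with a correlation of -0.19 across genes. The crossed pairing, chosen after seeing the data, passed 0 genes (limma, 1430 at an unadjusted p under 0.05). FOS could not be fitted under the stricter filter, a mean of 5 FPKM or more. With 2 libraries a group and unknown depth, differences of low genes such as FOS are limited by a spread that FPKM do not explain.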
